A study of Homo sapiens with 4 samples.

Results

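The 10 genes described here encode subunits of the V-ATPase, the proton pump of lysosomes, endosomes and the Golgi, and were picked by symbol from the 16878 genes listed for each library. Of these, 4 encode the V0 sector (ATP6V0B, ATP6V0C, ATP6V0D1 and ATP6V0E1), 5 encode the V1 sector (ATP6V1A, ATP6V1B2, ATP6V1C1, ATP6V1D and ATP6V1H) and 1 encodes an accessory protein (ATP6AP1). RNA-seq was carried out on PANC-1, an established human pancreatic cancer cell line, 48 h after transfection with a control (2 Control libraries) or with a small interfering RNA against SIRT1 (2 siSIRT1 libraries). SIRT1 is an NAD-dependent protein deacetylase. The cells carried no other labelled change, 1 siRNA sequence was listed for SIRT1, and the labels do not say whether the 2 libraries of a group came from separate cultures, so that the p-values below measure only the spread between these libraries.

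The V-ATPase is a rotary motor. Its V1 sector, which lies in the cytosol, hydrolyses ATP and turns a central stalk, and the stalk turns a ring of small proteolipid subunits in the V0 sector, which carries protons across the membrane. The pump acidifies lysosomes so that their hydrolases can work, its sectors can come apart and rejoin to switch it off and on, and on the lysosome it also takes part in amino acid sensing by mTORC1. Loss of SIRT1 has been tied to altered lysosome acidification, and the comparison asks whether the transcripts of the pump subunits differed when SIRT1 was reduced.

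Transcripts of all 4 V0 members rose in siSIRT1, by 1.32- to 1.71-fold, while 2 of the 5 V1 members, ATP6V1D and ATP6V1B2, rose by 1.66- and 1.32-fold. ATP6V1A, ATP6V1C1 and ATP6V1H did not pass the test. ATP6AP1 rose by 1.15-fold, a call that was lost under another scaling. No member fell. In all, 7 of the 10 members passed an adjusted p of 0.05 (limma on log2(FPKM + 1), Benjamini-Hochberg over the 12191 genes whose mean reached 1 FPKM), all of them higher, where 37.1% of the tested genes passed in either direction, 24% were higher and 13.1% were lower.

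SIRT1 itself was at 10.5 and 10.3 FPKM (the deposited unit, read fragments divided by transcript length in kilobases and by the mapped total) in Control against 1.80 and 2.05 FPKM in siSIRT1, a log2 fold change of -1.96 ± 0.11 (SE) (adjusted p 1.33e-05, limma). The depth estimated from the values was 8750000 to 9310000 reads per library. Between 147 reads (ATP6V1D in Control 1) and 4539 reads (ATP6AP1 in siSIRT1 1) lay behind a member's value. Across genes, Pearson's r on the log2 scale was 0.9953 within Control, 0.993 within siSIRT1 and 0.9672 to 0.9707 between groups. Among epithelial markers KRT8 was at 2164 to 2745 FPKM and KRT19 at 313 to 394 FPKM, whereas KRT7 was only at 2.89 to 4.04 FPKM and EPCAM at 5.34 to 11.2 FPKM. The acinar and endothelial markers were at 0.75 FPKM or less in every library and PTPRC, a leukocyte marker, at 0.97 to 1.29 FPKM. CD68, a lysosomal protein that also marks macrophages, was lower in siSIRT1, at 63.0 and 60.8 FPKM in Control against 42.3 and 39.1 FPKM, and its part in the results was not tested. In these bulk samples a change in RNA per cell and a change in the make-up of the cells cannot be told apart.

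The proteolipid ring was examined first. ATP6V0C (Entrez gene 527, GRCh37 chromosome 16, 2563953 to 2570219, plus strand, 3 exons) encodes subunit c, the main proteolipid of the ring. It had the highest level of the 10 members, at 285 and 267 FPKM in Control against 388 and 357 FPKM in siSIRT1. Both siSIRT1 libraries were above both Control libraries. Mean levels were 276 ± 13.0 and 373 ± 22.2 FPKM (SD, n = 2), which gave a log2 fold change of 0.43 ± 0.07 (SE) (adjusted p 0.00164, limma). The annotation holds 4 named pseudogenes of ATP6V0C, and its exons overlap those of 2 further protein-coding genes on the same strand, so that its level is uncertain to the extent that reads are shared. ATP6V0B (Entrez gene 533, chromosome 1, 44440159 to 44443967, plus strand, 8 exons) encodes the related proteolipid c″. It was at 44.7 FPKM in both Control libraries and at 62.1 and 55.8 FPKM in siSIRT1. The groups did not overlap, and the log2 fold change was 0.39 ± 0.07 (SE) (adjusted p 0.00288, limma).

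The remaining V0 members flank the ring. ATP6V0D1 (Entrez gene 9114, chromosome 16, 67471917 to 67515084, minus strand, 8 exons) encodes subunit d, which couples the central stalk to the ring. It was at 23.7 and 19.7 FPKM in Control against 38.4 and 35.9 FPKM in siSIRT1, the lowest level among the V0 members. Both siSIRT1 values lay well above both Control values. Mean levels were 21.7 ± 2.79 and 37.2 ± 1.77 FPKM (SD, n = 2), and the log2 fold change of 0.75 ± 0.09 (SE) was the largest of the 10 members (adjusted p 0.00046, limma). ATP6V0E1 (Entrez gene 8992, chromosome 5, 172410774 to 172462448, plus strand, 4 exons) encodes the small membrane subunit e. It was at 142 and 136 FPKM in Control against 199 and 184 FPKM in siSIRT1, again without overlap. Its log2 fold change was 0.46 ± 0.06 (SE) (adjusted p 0.000824, limma). The annotation also holds 4 named pseudogenes of ATP6V0E1.

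In the V1 sector the members split. ATP6V1D (Entrez gene 51382, chromosome 14, 67761088 to 67826982, minus strand, 9 exons) encodes subunit D of the central stalk, which meets subunit d of V0. It was at 10.5 and 11.1 FPKM in Control against 18.5 and 17.2 FPKM in siSIRT1. The groups were far apart relative to their spread, with means of 10.8 ± 0.424 and 17.8 ± 0.877 FPKM (SD, n = 2). The log2 fold change was 0.68 ± 0.08 (SE) (adjusted p 0.000501, limma). The 2 members with the largest changes, ATP6V0D1 and ATP6V1D, encode neighbouring parts of the rotor. The ring that turns with them changed less, by 0.43 for ATP6V0C and 0.39 for ATP6V0B. Outside the members, ATP6V0E2 (0.91) and ATP6V1G1 (0.70) changed more than ATP6V1D.

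The catalytic hexamer is built from subunits A and B. ATP6V1A (Entrez gene 523, chromosome 3, 113465617 to 113530903, plus strand, 15 exons), the catalytic subunit, was at 11.0 and 12.4 FPKM in Control against 10.1 and 12.2 FPKM in siSIRT1. The groups overlapped, and the log2 fold change was -0.07, with a 95% interval from -0.32 to 0.19 (adjusted p 0.677, limma). ATP6V1B2 (Entrez gene 526, chromosome 8, 20054892 to 20084330, plus strand, 14 exons), the B subunit that forms the ATP-binding interface with A, was at 8.84 and 8.52 FPKM in Control against 11.3 and 11.6 FPKM in siSIRT1. Both siSIRT1 values were above both Control values, and the log2 fold change was 0.36 ± 0.09 (SE) (adjusted p 0.013, limma). This call rested on having both Control libraries: the adjusted p was 0.0682 without Control 1 and 0.105 without Control 2.

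Subunits C and H control the joining of V1 to V0. ATP6V1C1 (Entrez gene 528, chromosome 8, 104033291 to 104085279, plus strand, 13 exons) was at 8.37 and 9.90 FPKM in Control against 8.49 and 9.86 FPKM in siSIRT1. The groups covered nearly the same range, with a log2 fold change of 0.01 and a 95% interval from -0.26 to 0.27 (adjusted p 0.97, limma), and the sign turned under other scalings. ATP6V1H (Entrez gene 51606, chromosome 8, 54628103 to 54756118, minus strand, 14 exons) was at 15.6 and 18.5 FPKM in Control against 19.1 and 18.7 FPKM in siSIRT1. The groups did not overlap, but Control 2 lay close to the siSIRT1 values, and the log2 fold change of 0.14 did not pass (95% interval -0.07 to 0.36, adjusted p 0.262, limma). ATP6V1A and ATP6V1C1 each overlap 1 long noncoding RNA on the opposite strand, and whether the counting used strand is not given in the sources used here.

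ATP6AP1 (Entrez gene 537, chromosome X, 153656979 to 153664862, plus strand, 10 exons) encodes Ac45, an accessory protein of V0 that helps the pump assemble. It was at 218 and 224 FPKM in Control against 264 and 245 FPKM in siSIRT1, second only to ATP6V0C. The groups did not overlap, and the log2 fold change was 0.21 ± 0.06 (SE) (adjusted p 0.031, limma). The call was lost under median-of-ratios scaling (0.12, adjusted p 0.259) and with the trend on transcript length removed (0.09, adjusted p 0.17). It was also lost without Control 1 (adjusted p 0.298), without Control 2 (adjusted p 0.201) and without siSIRT1 1 (adjusted p 0.0528).

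**Figure D1:**
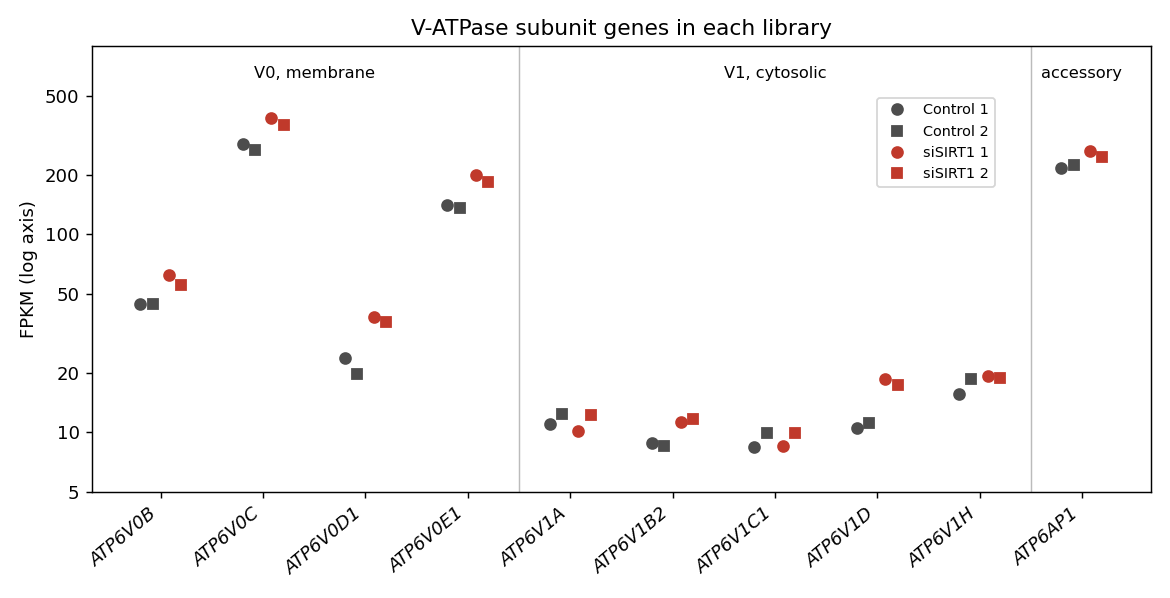
FPKM (log axis) of the 10 V-ATPase members in each of the 4 libraries, grouped by sector, with grey points for Control, red points for siSIRT1, circles for replicate 1 and squares for replicate 2. Both siSIRT1 points lie above both Control points in all 4 V0 members, in ATP6V1B2, ATP6V1D and ATP6V1H and in ATP6AP1, and the groups overlap in ATP6V1A and ATP6V1C1.

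Without regard to the test, both siSIRT1 libraries were above both Control libraries in 8 of the 10 members, against 43.8% of all tested genes. The median log2 fold change over the 10 members was 0.38, with a range from -0.07 to 0.75, beside 0.074 over all tested genes. The median was 0.44 over the 4 V0 members and 0.14 over the 5 V1 members. FPKM is scaled to the library total only, and the balance of calls moved with the scaling: over all genes 2930 were higher and 1591 lower as deposited, and 2023 higher and 2053 lower under median-of-ratios scaling. With that scaling 16.6% of all genes were higher, 6 of the 10 members remained called higher and the member median was 0.29. The 6 were the 4 V0 members, ATP6V1D and ATP6V1B2.

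The V0 and V1 members also differed in level. Per length, the 4 V0 members summed to 495 and 468 FPKM in Control against 688 and 632 FPKM in siSIRT1. The 5 V1 members summed to 54.3 and 60.4 FPKM in Control against 67.4 and 69.6 FPKM in siSIRT1. Every V0 member had a higher FPKM than every V1 member in each library. This order did not hold over the other subunit genes. In Control, ATP6V1F and ATP6V1E1 of V1 averaged 68.6 and 45.9 FPKM, against 18.7 and 4.05 FPKM for ATP6V0A1 and ATP6V0A2 of V0. TCIRG1 of V0 averaged 71.5 FPKM. The V0 members exceeded the V1 members in mean log2 level by 2.83 and 2.60 in Control and by 3.09 and 2.90 in siSIRT1. The gap between these members was thus 0.28 wider in siSIRT1. The groups did not overlap in this gap, but siSIRT1 2 was only slightly above Control 1. With 2 libraries against 2 the smallest two-sided p that an exact permutation test allows is 0.333, and no test was run. The widening was 0.40 without Control 1, 0.17 without Control 2, 0.19 without siSIRT1 1 and 0.38 without siSIRT1 2. It concerns the members only, as the other tested subunit genes showed no such split. Their log2 fold changes in V0 were 0.91 (ATP6V0E2), 0.52 (ATP6V0A1), 0.07 (ATP6V0A2) and -0.03 (TCIRG1). In V1 they were 0.70 (ATP6V1G1), 0.54 (ATP6V1F), 0.25 (ATP6V1E1), 0.21 (ATP6V1C2) and -0.16 (ATP6V1E2).

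The 12 other tested subunit and accessory genes were examined in the same fit, and 6 of them rose and none fell, beside 24% higher and 13.1% lower over all tested genes, with a median log2 fold change of 0.23. Under median-of-ratios scaling 4 of the 12 were higher, beside 16.6% of all genes. In V0, subunit a forms the proton path beside the ring and directs the pump to its membrane. ATP6V0A1, one of its isoforms, was at 18.6 and 18.8 FPKM in Control and at 27.2 FPKM in both siSIRT1 libraries, a log2 fold change of 0.52 ± 0.07 (SE) (adjusted p 0.000713, limma). The most abundant isoform gene, TCIRG1 (subunit a3), was at 71.6 and 71.5 FPKM in Control against 69.2 and 71.1 FPKM in siSIRT1, with a log2 fold change of -0.03 and a 95% interval from -0.16 to 0.10. ATP6V0A2 was at 3.91 and 4.20 FPKM in Control against 3.90 and 4.71 FPKM in siSIRT1 (log2 fold change 0.07, adjusted p 0.717, limma, with a sign that turned under median-of-ratios scaling).

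ATP6V0E2, the second gene for subunit e, showed the largest change of all 22 tested V-ATPase genes. It was at 19.0 and 19.5 FPKM in Control against 37.7 and 36.4 FPKM in siSIRT1, a 1.93-fold difference, with a log2 fold change of 0.91 ± 0.07 (SE) (adjusted p 4.2e-05, limma). RNASEK, a small V0-associated protein, was at 189 and 192 FPKM in Control against 264 and 221 FPKM in siSIRT1 (log2 fold change 0.34, adjusted p 0.0125, limma). Its call was lost under median-of-ratios scaling (adjusted p 0.0687), without Control 1 (0.0864) and without Control 2 (0.0671). ATP6AP2, the prorenin receptor and an accessory protein, was at 27.9 and 32.0 FPKM in Control against 31.4 and 30.4 FPKM in siSIRT1, with a log2 fold change of 0.05 that turned to -0.04 under median-of-ratios scaling. ATP6AP1L, a relative of ATP6AP1, was at 3.26 and 4.47 FPKM in Control against 3.56 and 3.78 FPKM in siSIRT1 (log2 fold change -0.05, adjusted p 0.822, limma).

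In V1, subunits E and G form the peripheral stalks that hold the hexamer still, and F is part of the central stalk. ATP6V1G1 was at 18.5 and 23.0 FPKM in Control against 34.5 and 33.6 FPKM in siSIRT1, with a log2 fold change of 0.70 ± 0.10 (SE) (adjusted p 0.00094, limma). ATP6V1F was at 70.1 and 67.1 FPKM in Control against 107 and 93.0 FPKM in siSIRT1, with a log2 fold change of 0.54 ± 0.08 (SE) (adjusted p 0.000972, limma). The groups were clearly apart in both genes. ATP6V1E1 was at 46.7 and 45.1 FPKM in Control against 59.0 and 50.5 FPKM in siSIRT1 (log2 fold change 0.25, adjusted p 0.0417, limma). That call was lost under median-of-ratios scaling (adjusted p 0.204), without Control 1 (0.118), without Control 2 (0.208) and without siSIRT1 1 (0.127).

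Other V1 isoform genes did not pass. ATP6V1C2 was at 24.7 and 23.6 FPKM in Control against 29.6 and 26.6 FPKM in siSIRT1 (log2 fold change 0.21, adjusted p 0.0651, limma), and it passed without siSIRT1 2 (adjusted p 0.0254). ATP6V1E2 was at 2.74 and 2.42 FPKM in Control against 1.53 and 3.04 FPKM in siSIRT1, where the 2 libraries lay on either side of Control (log2 fold change -0.16, adjusted p 0.581, limma). Without siSIRT1 2 its log2 fold change was -0.50 (adjusted p 0.0394). ATP6V0A4, ATP6V0D2 and ATP6V1G2 were below the filter, at 0.19 to 0.32, 0.79 to 1.01 and 0.33 to 0.73 FPKM. ATP6V1B1 and ATP6V1G3 were not found by symbol among the genes listed for each library, so no level can be given for them.

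**Figure D2:**
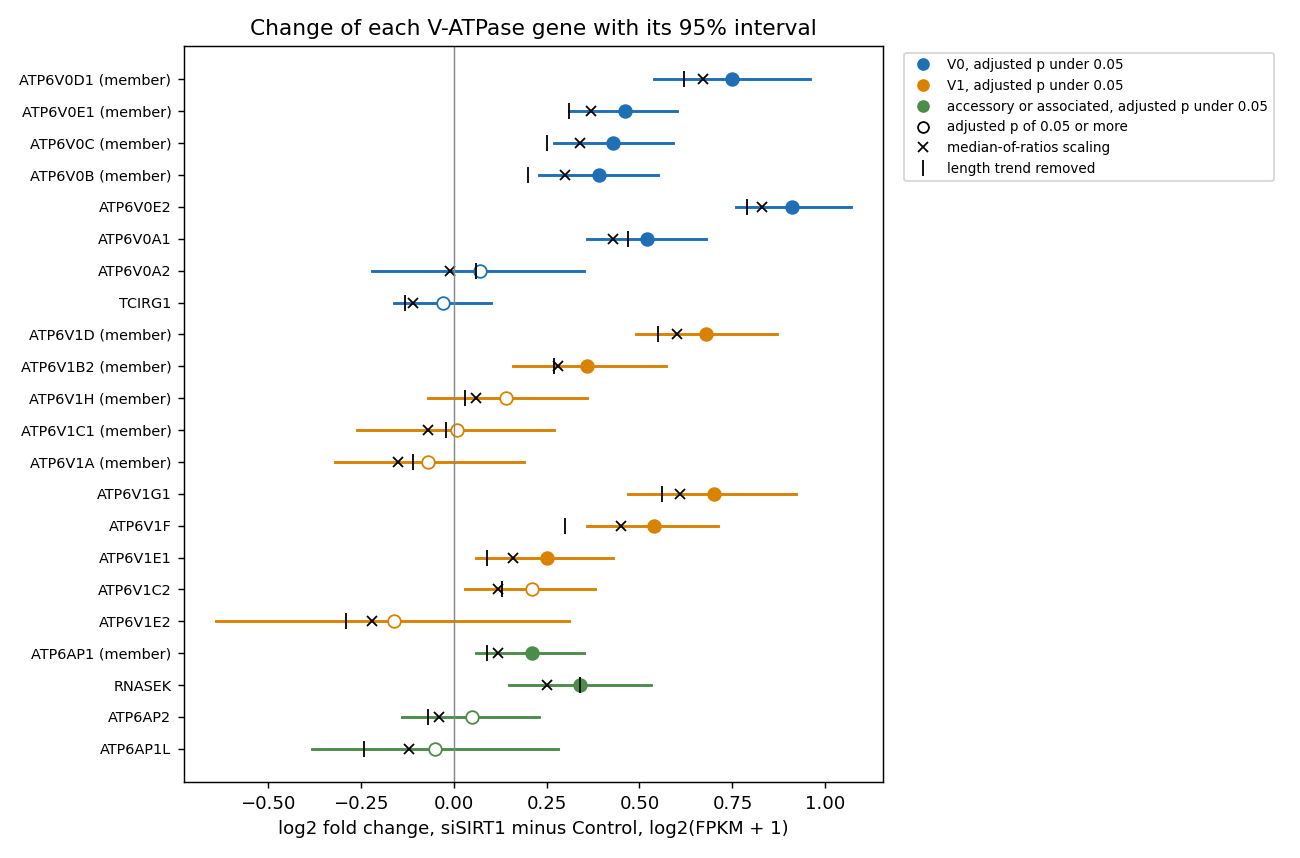
Log2 fold change (siSIRT1 minus Control, on log2(FPKM + 1)) of the 22 tested V-ATPase genes with its 95% interval from limma, colored by sector. Filled points passed an adjusted p of 0.05, crosses give the value under median-of-ratios scaling and vertical ticks the value with the trend on transcript length removed. RNASEK had no canonical transcript length, so its tick is the uncorrected value. ATP6V1C1, ATP6V0A2 and ATP6AP2 change sign, and ATP6V1A, TCIRG1, ATP6AP1L and ATP6V1E2 stay below 0 in every version. All other genes, of both sectors, stay above 0 in every version, among them the 4 V0 members and ATP6V1D.

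Several subunits are encoded by more than 1 gene, and the share of each isoform gene within its family does not depend on a scaling by 1 factor per library. Within subunit a, ATP6V0A1 made up 19.7% and 19.9% of the summed FPKM in Control and 27.1% and 26.3% in siSIRT1, and TCIRG1 made up 75.9% and 75.4% in Control and 68.7% and 68.9% in siSIRT1. Within subunit e, ATP6V0E2 made up 11.8% and 12.5% in Control and 15.9% and 16.5% in siSIRT1, beside its partner ATP6V0E1, which itself rose. These shares were apart between the groups by more than between the libraries of a group. For subunit C the shares overlapped, with ATP6V1C2, not the member ATP6V1C1, at 70.4% to 77.7% in the 4 libraries. ATP6V0D1, ATP6V1E1 and ATP6V1G1 each made up at least 94.3% of their family in every library.

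**Figure D3:**
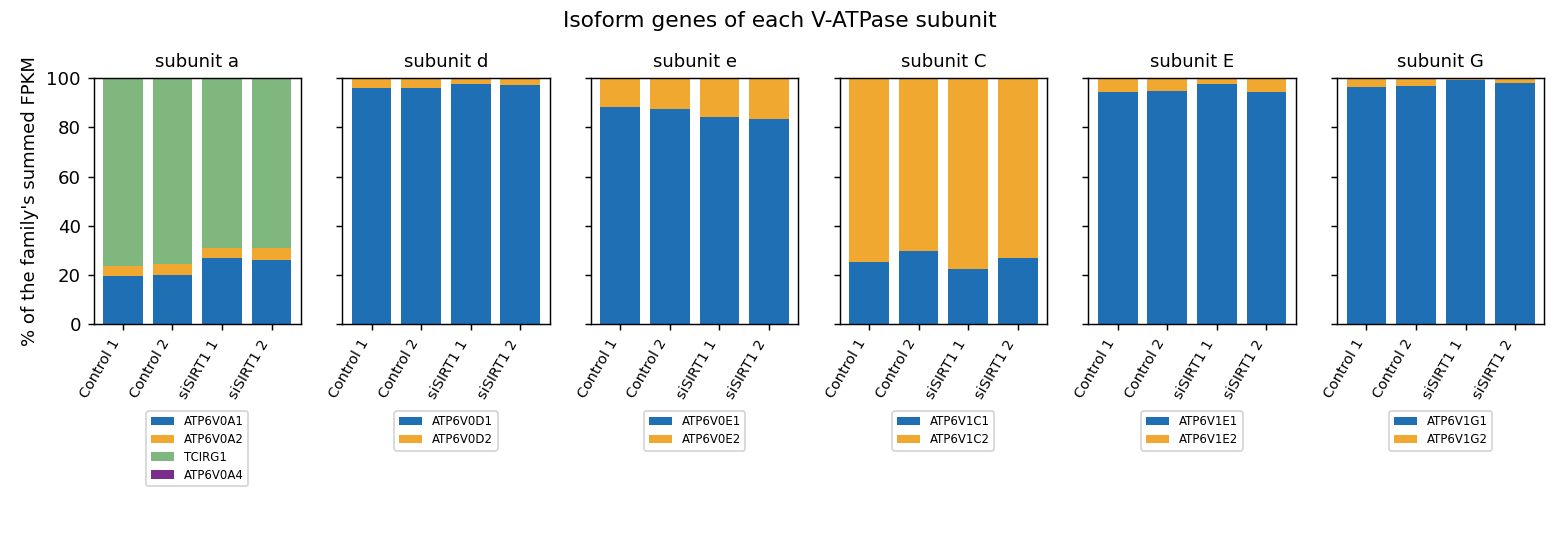
Share of each isoform gene in the summed FPKM of its subunit family (% on the vertical axis, stacked to 100) in each of the 4 libraries, for subunits a, d, e, C, E and G. The share of ATP6V0A1 within subunit a is 26.3% or more in siSIRT1 and 19.9% or less in Control, and the make-up of subunit C does not separate the groups.

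The V0 members have short transcripts, and changes ran with transcript length in these libraries. The canonical transcripts of the 4 V0 members were 987 to 1636 bases long and those of the 5 V1 members 1599 to 5635 bases. Over all tested genes with a canonical transcript, the median log2 fold change was 0.16 in the shortest of 5 length classes of equal size (249 to 1786 bases) and 0.00 in the longest, and 36.4% and 12.6% of the genes of these classes were higher. The 4 V0 members and ATP6V1D all belong to the shortest class. With each library's trend on length removed, 18.8% of all genes were higher and the same 6 members were called as under median-of-ratios scaling, with log2 fold changes of 0.62 for ATP6V0D1, 0.55 for ATP6V1D, 0.31 for ATP6V0E1, 0.27 for ATP6V1B2, 0.25 for ATP6V0C and 0.20 for ATP6V0B. The median was then 0.28 over the V0 members and 0.03 over the V1 members, and the gap between them widened by 0.20. Transcript GC content was 43.8% to 62.9% in the V0 members and 39.7% to 45.5% in the V1 members. With the trend on GC content removed 6 members were higher, beside 2309 of all 12191 tested genes.

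**Figure D4:**
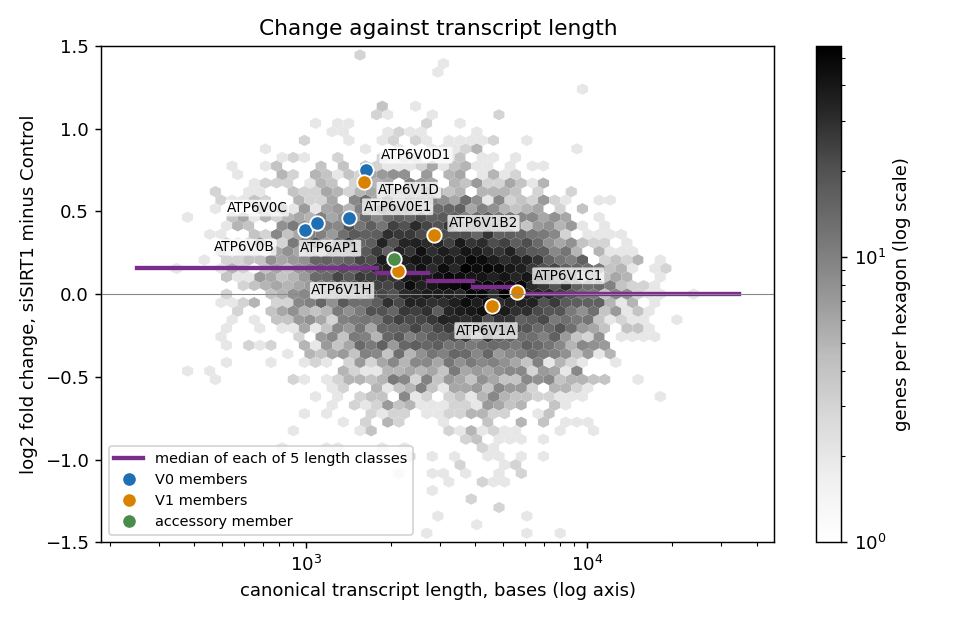
Log2 fold change (siSIRT1 minus Control) against canonical transcript length (bases, log axis) for all tested genes as shaded hexagons, with the median of each of the 5 length classes as purple lines and the 10 V-ATPase members as colored points. The medians step down from 0.16 to 0.00 with length, and the 4 V0 members, ATP6V1D, ATP6V1B2 and ATP6AP1 lie above the median of their class, ATP6V1H lies close to it, and ATP6V1A and ATP6V1C1 lie near 0.

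Lysosomal genes are often controlled through a short E-box element near the start site, to which the transcription factors TFEB, TFE3 and MITF bind, and the promoters were therefore read for it. RefSeq windows of 300 bases (250 before and 50 after the start, GRCh38.p14) were given for 5 of the 10 members: ATP6V0B, ATP6V0C, ATP6V0D1, ATP6V1D and ATP6AP1. The E-box CACGTG, which reads the same on both strands, was found in ATP6V0B (57 and 39 bases before the start) and in ATP6V0D1 (59 bases before). Of 13 other subunit genes with a window, it was found in ATP6V0E2 (72 and 68 bases before the start in 2 of its 3 windows) and in ATP6V1G1 (58 bases before). The longer core GTCACGTG, searched on both strands and containing the E-box, was present in ATP6V0B, ATP6V0D1 and ATP6V1G1, in the last with 1 match on each strand that overlap. The 100 bases that hold these matches are shown 5′ to 3′ on the strand of the gene, with the matches in capitals, for ATP6V0B (chr1:43974860-43974959, plus strand), ATP6V0D1 (chr16:67481158-67481257, minus strand), ATP6V0E2 (chr7:149872868-149872967, plus strand) and ATP6V1G1 (chr9:114587669-114587768, plus strand).
ATP6V0B: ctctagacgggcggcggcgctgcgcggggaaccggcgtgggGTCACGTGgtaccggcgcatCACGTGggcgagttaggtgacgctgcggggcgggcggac
ATP6V0D1: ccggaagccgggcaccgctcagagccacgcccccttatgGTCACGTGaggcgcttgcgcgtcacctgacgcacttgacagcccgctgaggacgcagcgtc
ATP6V0E2: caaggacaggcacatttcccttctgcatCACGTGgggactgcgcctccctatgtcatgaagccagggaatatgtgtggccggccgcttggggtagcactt
ATP6V1G1: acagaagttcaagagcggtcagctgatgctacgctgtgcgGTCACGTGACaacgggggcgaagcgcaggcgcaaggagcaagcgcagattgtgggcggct

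CACGTG was present in 7.26% of all 35116 windows and in 12.7% of the tested genes with a window, and GTCACGTG in 2.4% and 5.35%. Over all tested genes with a window, the median log2 fold change was 0.07 with CACGTG and 0.08 over all of them, and 23.9% and 24.5% were higher. A match of letters is a description of the window and not a binding site.

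The siRNA itself was checked against the members, since a guide strand can also act on transcripts that match its seed. The listed sense strand matched the SIRT1 transcript in full and no other canonical transcript of the tested genes. Genes below the filter were not searched. Which strand acts as the guide is not given in the sources used here, and the antisense strand was taken as the guide. The capitals mark the bases that pair with its seed (bases 2 to 8).
siSIRT1: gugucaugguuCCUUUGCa
The seed match CCTTTGC was found in the 3′ UTR of 3 of the 10 members, ATP6V1A, ATP6V1C1 and ATP6V0E1, and in 15.6% of the tested genes. ATP6V0E1 rose and the other two did not pass the test. Over all tested genes the median log2 fold change was 0.06 with a match and 0.08 without.

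Other genes act in building or regulating the pump. Of 13 tested assembly and regulatory genes, 1 rose and 1 fell, beside 24% and 13.1% of all tested genes, with a median log2 fold change of 0.10. Under median-of-ratios scaling none was higher and 2 were lower, beside 2023 higher and 2053 lower of all 12191 tested genes. ROGDI, a subunit of the RAVE-like complex that rejoins V1 and V0, was at 18.5 and 16.0 FPKM in Control against 11.9 and 9.61 FPKM in siSIRT1, without overlap (log2 fold change -0.64, adjusted p 0.00306, limma). TMEM9, a lysosomal protein that binds the pump, was at 49.4 and 49.8 FPKM in Control against 62.2 and 57.1 FPKM in siSIRT1 (log2 fold change 0.26, adjusted p 0.0139, limma). The TMEM9 call was lost under median-of-ratios scaling (adjusted p 0.0988), without Control 1 (0.11) and without Control 2 (0.0983).

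Some channels and exchangers of endosomes and lysosomes carry ions that balance the proton current of the pump. Of 12 tested genes for channels, exchangers and an associated protein (OSTM1) of these membranes, 2 rose and 3 fell. Thus 5 of 12 were called beside 37.1% of all tested genes (24% higher and 13.1% lower), with a median log2 fold change of -0.02. With median-of-ratios scaling 1 was higher and 4 were lower, beside 2023 higher and 2053 lower of all 12191 tested genes. TPCN1, a cation channel of endosomes and lysosomes, was at 53.2 and 55.7 FPKM in Control against 23.4 and 23.1 FPKM in siSIRT1, with a log2 fold change of -1.19 ± 0.06 (SE) (adjusted p 8.96e-06, limma). Each of the 3 mucolipin channel genes passed, in different directions. MCOLN3 was at 1.11 and 1.06 FPKM in Control against 3.05 and 2.17 FPKM in siSIRT1 (log2 fold change 0.78, adjusted p 0.0049, limma), and MCOLN2 at 3.30 and 3.72 FPKM in Control against 1.82 and 1.91 FPKM in siSIRT1 (log2 fold change -0.65, adjusted p 0.00444, limma). MCOLN1 was at 16.6 and 14.7 FPKM in Control against 21.2 and 19.4 FPKM in siSIRT1 (log2 fold change 0.35, adjusted p 0.0144, limma), and lost its call under median-of-ratios scaling (adjusted p 0.056), without Control 2 (0.143) and without siSIRT1 1 (0.0633). The remaining called gene, CLCN7, the chloride/proton exchanger of lysosomes, fell (log2 fold change -0.28, adjusted p 0.0102, limma), with an adjusted p of 0.0674 without Control 1 and 0.101 without Control 2.

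On the lysosome surface the V-ATPase contacts the Ragulator complex, which anchors the Rag GTPases and, through them, mTORC1. Of 18 tested genes of this nutrient-sensing group, 9 rose and none fell, beside 24% higher and 13.1% lower over all tested genes, with a median log2 fold change of 0.27. Under median-of-ratios scaling 6 of the 18 were higher, beside 16.6% of all genes. RRAGD, a Rag GTPase gene, was at 0.69 and 0.77 FPKM in Control against 2.31 and 2.49 FPKM in siSIRT1 (log2 fold change 0.97, adjusted p 0.000846, limma). Both Control values were below 1 FPKM, on about 31 and 34 reads. RRAGD thus passed the filter only through its siSIRT1 values, and it is among the 9 that rose. LAMTOR5, a Ragulator subunit, was at 25.8 and 19.9 FPKM in Control against 42.9 and 39.6 FPKM in siSIRT1 (log2 fold change 0.84, adjusted p 0.000711, limma). RRAGC, the closest relative of RRAGD, was at 9.03 and 9.61 FPKM in Control against 14.4 and 13.3 FPKM in siSIRT1 (log2 fold change 0.52, adjusted p 0.00257, limma). TFEB, the transcription factor named above, was at 3.30 and 3.97 FPKM in Control against 5.43 and 5.88 FPKM in siSIRT1 (log2 fold change 0.52, adjusted p 0.0107, limma), with an adjusted p of 0.098 without Control 1.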

How the data were processed

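RNA-seq was performed on 4 libraries of PANC-1 cells, 2 Control and 2 siSIRT1, grouped by the treatment given in the labels. The authors deposited 1 table per library with an FPKM value for each of 16878 genes, named by Entrez identifier, RefSeq transcripts and symbol. Submitters' processing notes name HISAT, Bowtie2 and RSEM without roles or versions, and the genome build is not given in the sources used here. FPKM are scaled to library size only, so a few abundant genes can shift all others, and how reads shared between copies were assigned is not given in the sources used here.

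Genes whose mean over the libraries reached 1 FPKM (12191) were tested on log2(FPKM + 1), which understates changes of low genes, with limma 3.58.1 in R 4.3.3 (lmFit, then eBayes with a mean-variance trend, two-sided, Benjamini-Hochberg threshold 0.05). On simulated data of 12203 genes, 200 of them changed, the test recovered 94% of 1.5-fold and 100% of 2-fold changes, and 3.03% of its calls were false. The simulated noise was independent between libraries and held no trend on transcript length and no shift in scaling. These shares therefore do not carry over to the real libraries, where far more genes were called. Alternatives were a pseudocount of 0.1, no filter, quantile normalization, median-of-ratios scaling, no trend, the replicate number as a block, removal of each library's lowess trend (span 0.3) on transcript GC content or length, and leaving out each library. Depth was estimated from the steps that 1 read makes in the low FPKM of 93 to 113 single-exon genes per library. On values simulated under the same model the error was at most 0.09%, which does not measure the error in the real libraries. Reads per gene are approximate.

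The 10 members are all named. Other subunit genes are named with their values or, below the filter, their level, and in each further list up to 4 called genes with the largest absolute log2 fold change. CLCN7, LIPA and CTSF were named after their values were seen. The members and lists were chosen with earlier results of these data known. Coordinates, exons, transcript length, GC content and 3′ UTRs came from the canonical transcripts of GENCODE 44 on GRCh37, promoters from RefSeq (GRCh38.p14) and the siRNA from the study's supplement. Of the identifiers, 16846 matched the RefSeq gene table.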

Additional observations from a re-analysis of the deposited data

How the results depend on the processing

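The number of V-ATPase members with an adjusted p under 0.05 was 7 and ran from 5 to 7 over all alternatives. The median log2 fold change over the members was 0.38, and moved to 0.30 with quantile normalization, to 0.29 with median-of-ratios scaling, to 0.29 with the GC trend removed and to 0.22 with the length trend removed, and ran from 0.34 to 0.40 when 1 library was left out. Over all genes 4521 were called, from 2691 (without Control 2) to 4608 when 1 library was left out, and 3531 to 5393 over the other alternatives. The cause of these shifts was not tested. The widening of the gap between the V0 and V1 members ran from 0.17 to 0.40. With the replicate number as a block (replicate block), 5393 genes and again 7 members were called, and of the V-ATPase genes only ATP6V1C2 changed its call (adjusted p 0.0244). The labels share only these numbers, and same-numbered libraries deviated together with a correlation of 0.1226 across genes, so no pairing was assumed.

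Genes without a call changed sign. ATP6V1A was at -0.07 and ran from -0.19 to 0.06 when 1 library was left out, among them 0.01 without Control 2. ATP6V1C1 was at 0.01, with -0.05 under quantile normalization, -0.07 under median-of-ratios scaling, -0.04 and -0.02 with the GC and length trends removed, and -0.10 to 0.12 without 1 library, among them -0.09. ATP6V0A2 turned to -0.01 under median-of-ratios scaling, 0.00 with the GC trend removed and -0.04 without siSIRT1 2. ATP6AP2 turned to -0.03 under quantile normalization, -0.04 under median-of-ratios scaling, 0.00 and -0.07 with the GC and length trends removed and ran from -0.05 to 0.14 without 1 library. Without 1 library ATP6AP1L ran from -0.23 to 0.13 and ATP6V1E2 from -0.50 to 0.18. Over 44 results, 38 values kept their direction but lost a call and 3 gained one. The member value with the fewest reads rested on 147 of them.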

Other observations

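Lysosomal hydrolases are the enzymes that need the acid made by the pump. Of 44 tested genes for lysosomal hydrolases and membrane proteins, 10 rose and 12 fell, beside 24% higher and 13.1% lower over all tested genes, with a median log2 fold change of -0.08. Under median-of-ratios scaling 8 were higher and 14 lower, beside 2023 higher and 2053 lower of all 12191 tested genes. With the length trend removed 8 were higher and 19 lower, beside 2290 higher and 2380 lower of all tested genes. SMPD1, the acid sphingomyelinase, was at 17.5 and 16.1 FPKM in Control against 29.1 and 29.4 FPKM in siSIRT1 (log2 fold change 0.77, adjusted p 0.000154, limma). GLA, the alpha-galactosidase, was at 46.6 and 46.2 FPKM in Control against 78.0 and 76.3 FPKM in siSIRT1 (log2 fold change 0.72, adjusted p 6.4e-05, limma). NPC2, which helps move cholesterol out of the lysosome, was at 68.2 and 64.2 FPKM in Control against 112 and 103 FPKM in siSIRT1 (log2 fold change 0.70, adjusted p 0.000145, limma). CTSK, a cathepsin, was at 1.23 and 1.41 FPKM in Control against 2.61 and 2.34 FPKM in siSIRT1 (log2 fold change 0.58, adjusted p 0.00958, limma), with an adjusted p of 0.067 without Control 1. These 4 had the largest changes, in either direction, of the genes that passed. Among the genes that fell, LIPA, the acid lipase, had the largest change, at 88.4 and 88.1 FPKM in Control against 58.1 and 62.1 FPKM in siSIRT1 (log2 fold change -0.55, adjusted p 0.000295, limma). The next was CTSF, a cathepsin, at 29.9 and 29.8 FPKM in Control against 21.8 and 19.0 FPKM in siSIRT1 (log2 fold change -0.53, adjusted p 0.00141, limma).

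The IGF2BP genes encode proteins that bind mRNAs. IGF2BP3 was at 31.6 and 31.3 FPKM in Control against 12.6 and 14.9 FPKM in siSIRT1 (log2 fold change -1.14, adjusted p 5.2e-05, limma). IGF2BP2 fell less, from 32.9 and 33.1 FPKM to 27.9 and 25.9 FPKM (log2 fold change -0.29, adjusted p 0.0121, limma), and lost its call without Control 1 (adjusted p 0.0882) and without Control 2 (0.0965). IGF2BP1 rose from 9.83 and 10.1 FPKM to 13.3 and 13.5 FPKM (log2 fold change 0.39, adjusted p 0.0072, limma), with an adjusted p of 0.0648 without Control 1.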
